A study of Mus musculus with 4 samples.

Results

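The 10 genes Glul, Apoe, Clu, Dkk3, Sox9, Sox2, Aqp4, Vim, Gfap and Pax2 mark the glia of the mouse retina. The first 8 are markers of Muller glia, and Gfap and Pax2 are markers of astrocytes. They were picked by gene symbol, all 10 were found among the 23336 genes of the deposited table, and all 10 were among the 15003 genes abundant enough to be tested. Polyadenylated RNA was sequenced from retinas at postnatal day 8, all on the C57/Bl6 background. Opn4-DTA/DTA mice were set against littermates of wild type (WT), with 2 libraries per group. In the mutants the toxin A chain of diphtheria replaces melanopsin at both Opn4 alleles, so the toxin is produced where the Opn4 promoter is active. Loss of melanopsin itself and loss of the ganglion cells that make it cannot be told apart. One label names dissociated cells and another an extract of the whole retina, and the number of animals per library is not stated. The p-values therefore measure the spread between these libraries, which may be technical.

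Muller glia span the thickness of the retina, clear glutamate and potassium released by neurons, and are the last cell type that retinal progenitors produce. Astrocytes have another origin: they enter from the optic nerve head, spread along the axons of ganglion cells, and form the template on which the first retinal vessels grow. Several of the markers are also made by other cells, Apoe by microglia, Vim by vessels and progenitors, Sox9 by progenitors and pigment epithelium, and Sox2 by progenitors and some amacrine cells.

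Values are normalized counts, that is counts divided by a size factor for each library. The library with the larger size factor is library a of its group, since the libraries, recovered from deposited group means, carry no sample names. Depth ranged from 22202382 to 60833968 counts per library. Opn4 stood at 428 and 246 normalized counts in WT and 0.546 and 0 in Opn4-DTA/DTA, which matches the labels. Past an adjusted p of 0.05 in limma, a linear model fitted across genes, were 3 of all 15003 tested genes (0.02%), of which 1 was higher in Opn4-DTA/DTA (0.00667%) and 2 were lower (0.0133%). The median size of the log2 difference was 0.20 between the WT libraries, 0.095 between the Opn4-DTA/DTA libraries and 0.070 between the group means. Averaging 2 libraries narrows the last of these, so it is not on the same footing as the others.

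No glial marker was called higher or lower in Opn4-DTA/DTA retinas with all 4 libraries, which does not show that their levels were equal. The fitted levels ran from 0.835 of WT for Clu to 1.24 times WT for Pax2. Of the 10 members 0 passed the threshold, which 0.02% of all tested genes passed, and 0 had an unadjusted p under 0.05, which 1.66% of all tested genes had. The limma adjusted p was 0.9997 for each member, and no gene of the further lists described here had a lower one. With 0.02% of all tested genes past the threshold, 0 calls is the usual outcome for lists as short as these. The median log2 fold change of the members was -0.033, with 4 above 0 and 6 below, and over all tested genes it was -9.6e-05. The authors' deposited table also calls none of the 10, with log2 fold changes from -0.098 to 0.049. These lie closer to 0 than the fitted values for every member. They are -0.043 for Clu and 0.035 for Pax2, where the fit gave -0.26 and 0.31. The narrow deposited range is thus not a like measure of how large the differences were. In bulk tissue, fewer cells of a type and less RNA per cell cannot be told apart.

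**Figure D1:**
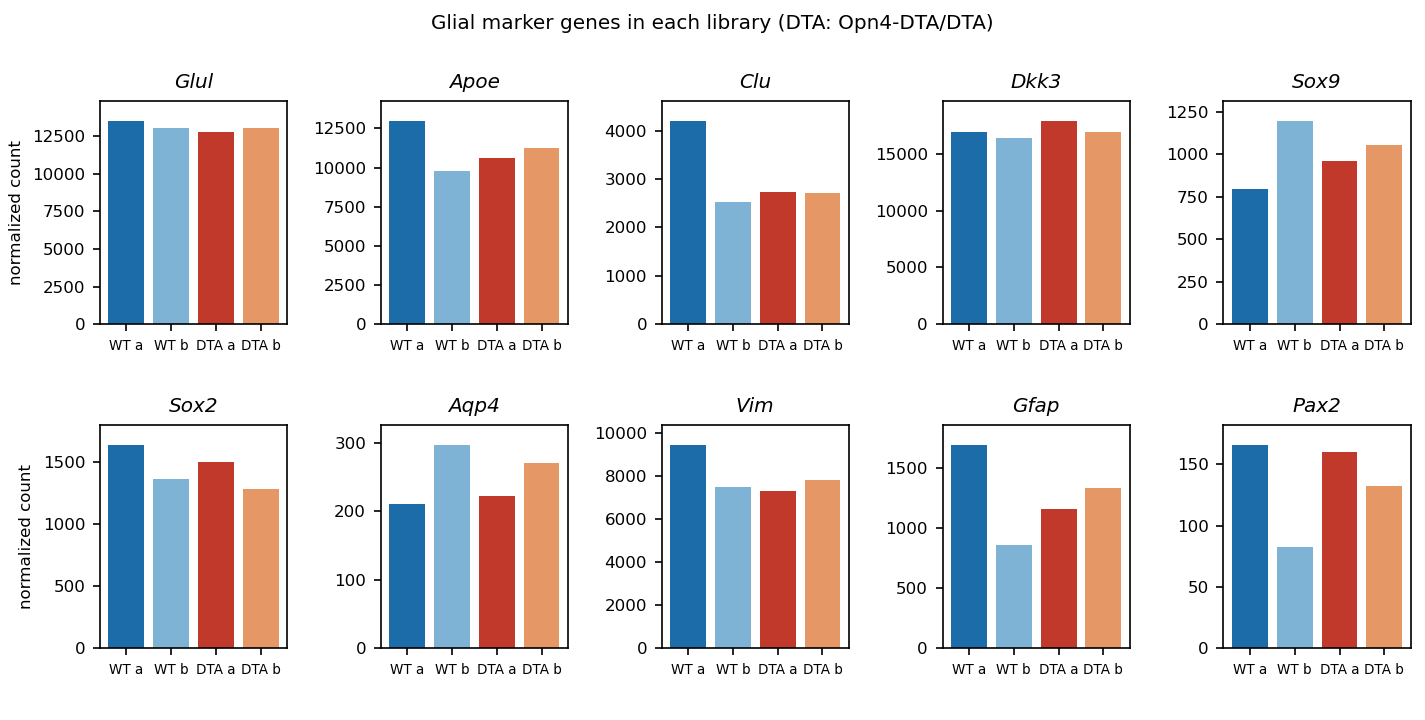
Bars give the normalized count (vertical axis, starting at 0, with its own scale in each panel) of each of the 10 markers in WT libraries a and b (blue) and Opn4-DTA/DTA libraries a and b (red and orange). Glul and Dkk3 are nearly level, Gfap and Pax2 have both their highest and their lowest bar in WT, and Sox9 and Aqp4 are highest in WT library b.

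The members covered a wide range of abundance. Per kilobase of annotated exon, averaged over the groups, Apoe stood at 5216 normalized counts, Dkk3 at 5072 and Glul at 3930.3, at ranks 119, 128 and 196 among the 13407 tested genes with a known length. Apoe, at 4569 to 6064 per kilobase over the libraries, could not be ordered against Dkk3, at 4880.0 to 5324. Vim followed at 1689 per kilobase, apart from its neighbours in every library. The ranges of Clu at 884 and Sox2 at 703 overlapped, though Clu was higher in each library. Those of Gfap at 299 and Sox9 at 242 also overlapped, and Sox9 was the higher in WT library b. Aqp4 at 40.1 and Pax2 at 24.98 normalized counts per kilobase were the least abundant members and did not overlap. Of the tested genes with a length, 58.9% stood lower per kilobase than Gfap and 15.6% stood lower than Pax2.

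Of the genes of glial metabolism and water balance, Glul had a narrow range and Aqp4 a wide one. Glul encodes glutamine synthetase, the enzyme with which Muller glia turn glutamate into glutamine. Its levels were 13485 and 13009.9 normalized counts in WT and 12748 and 12999 in Opn4-DTA/DTA. Glul was the 1 member of 10 whose groups did not overlap, with library b of WT and library b of Opn4-DTA/DTA almost equal, and groups did not overlap in 23.5% of all tested genes (11.2% higher, 12.3% lower). The Glul log2 fold change was -0.041 ± 0.089 (SE, n = 2 per group), with a 95% interval from 0.842 to 1.12 times WT. Aqp4, the water channel of glial endfeet, had 210.0 and 297 normalized counts in WT and 222 and 271 in Opn4-DTA/DTA. Both mutant values of Aqp4 lay between the WT values, with a log2 fold change of -0.025 ± 0.21 (SE, n = 2 per group) and an interval from 0.699 to 1.38 times WT. Aqp4 rested on 181 to 407 counts per library.

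The secreted proteins are represented by Apoe, Clu and Dkk3. Apoe carries cholesterol between cells, and its levels were 12964 and 9768 normalized counts in WT and 10621 and 11251 in Opn4-DTA/DTA. Both mutant values lay inside the WT range, and the log2 fold change was -0.042 ± 0.14 (SE, n = 2 per group). Clu, a lipoprotein component and extracellular chaperone, had 4195 and 2525 normalized counts in WT and 2734 and 2700.2 in Opn4-DTA/DTA, that is 3360.0 ± 1181 in WT and 2717 ± 23.9 in Opn4-DTA/DTA (SD, n = 2 each). For Clu WT library a stood alone and the other 3 libraries were close together. The Clu log2 fold change was -0.26 ± 0.21 (SE, n = 2 per group). It was 0.11 without WT library a (limma adjusted p = 0.517) and -0.63 without WT library b (limma adjusted p = 0.000396). Dkk3, a Dickkopf family member abundant in Muller glia, had 16955 and 16392 normalized counts in WT and 17882 and 16917 in Opn4-DTA/DTA. The Dkk3 groups overlapped, and the interval of the fold change was 0.898 to 1.21 times WT.

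The transcription factors moved in unlike ways among the libraries. Sox9, which has a role in forming Muller glia, had 796 and 1194 normalized counts in WT and 961 and 1051 in Opn4-DTA/DTA. Here WT library a was the lowest of the 4 libraries and WT library b the highest, and the log2 fold change was 0.044 ± 0.19 (SE, n = 2 per group). Sox2, which maintains progenitors and is kept in Muller glia, had 1639.7 and 1362 normalized counts in WT and 1502 and 1283 in Opn4-DTA/DTA, with overlapping groups and a log2 fold change of -0.11 ± 0.13 (SE, n = 2 per group). In the GENCODE vM21 annotation Sox2 overlaps the span of the noncoding gene Sox2ot on the same strand. Overlap of their exons was not examined, so whether reads are shared between the 2 genes is not known. Sox2ot had 832 and 780.5 normalized counts in WT and 917 and 891 in Opn4-DTA/DTA. Gfap, Glul and Pax2 overlap the spans of genes on the opposite strand, and whether counting used strand is not given. Pax2, a paired-box factor of the optic stalk and of astrocyte precursors, had 166 and 82.6 normalized counts in WT and 160.0 and 132 in Opn4-DTA/DTA, that is 124 ± 58.9 in WT and 146 ± 19.8 in Opn4-DTA/DTA (SD, n = 2 each). WT library b, with 54 Pax2 counts, was the lowest and WT library a the highest. The Pax2 log2 fold change of 0.31 ± 0.32 (SE, n = 2 per group) had an interval from 0.733 to 2.09 times WT. It was -0.19 without WT library b and 0.81 without WT library a (limma adjusted p = 0.700 and 0.0612).

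The filament genes were Vim and Gfap. Vim, the vimentin filament of immature and mature Muller glia, had 9446 and 7491 normalized counts in WT and 7295 and 7815 in Opn4-DTA/DTA, with overlapping groups and a log2 fold change of -0.16 ± 0.12 (SE, n = 2 per group). Gfap, the filament of astrocytes that Muller glia also make under stress, had 1694 and 862 normalized counts in WT and 1158 and 1331 in Opn4-DTA/DTA, that is 1278 ± 589 in WT and 1245 ± 123 in Opn4-DTA/DTA (SD, n = 2 each). Both mutant libraries lay between the WT libraries, and the log2 fold change was 0.039 ± 0.28 (SE, n = 2 per group), with an interval from 0.657 to 1.61 times WT. The fit averages log values, whereas the plain mean of Gfap was lower in Opn4-DTA/DTA. In the authors' deposited table the log2 fold change of Gfap is -0.0032, with the sign of the plain means.

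For both filament genes the value depended on which WT library was kept. Without WT library a, Gfap rose in Opn4-DTA/DTA (log2 fold change 0.53, limma adjusted p = 0.0230), and without WT library b it fell (-0.45, limma adjusted p = 0.0338). Vim was at 0.011 without WT library a (limma adjusted p = 0.957) and fell without WT library b (-0.32, limma adjusted p = 0.0465). In these fits the lone WT library is assumed to vary like the other group. They gave 1 member of 10 past the threshold without WT library a, beside 2.04% of all tested genes, and 3 of 10 without WT library b (Clu, Vim and Gfap), beside 1.58%. None of the 10 passed without Opn4-DTA/DTA library a (0.0667% of all tested genes) or library b (0.127%).

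**Figure D2:**
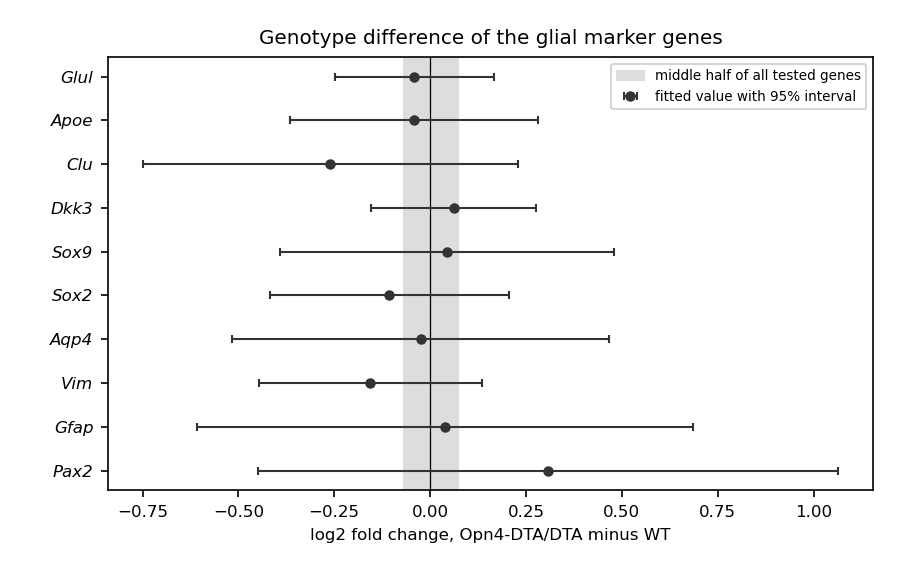
Points give the fitted log2 fold change (horizontal axis, Opn4-DTA/DTA minus WT) of each marker with its 95% interval from limma, and the grey band spans the quartiles of all tested genes, -0.068 and 0.074. All 10 intervals cross 0; Glul and Dkk3 have the narrowest and Pax2 the widest.

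Gfap lies at chr11:102887336-102897200 (minus strand), Vim at chr2:13574311-13582826 and Pax2 at chr19:44757394-44837869 (both plus strand), in mm10 as deposited. Clu is at chr14:65968483-65981545, Apoe at chr7:19696244-19699166, Dkk3 at chr7:112116019-112159057, Glul at chr1:153899945-153909714, Sox9 at chr11:112782210-112787757 and Sox2 at chr3:34650005-34652460, with Apoe and Dkk3 on the minus strand and the others on the plus strand. The sequence upstream of Gfap, Vim and Pax2 is shown because Gfap and Pax2 were the members furthest apart between the WT libraries and Vim is the other filament gene. Each run is the 250 bases before a RefSeq start in GRCm38.p6, 5′ to 3′ along the gene, with CG dinucleotides in capitals. The runs are chr11:102897201-102897450 (minus strand), chr2:13574061-13574310 and chr19:44756656-44756905 (both plus strand). Of 3 listed Pax2 starts the nearest was used, 488 bases from the deposited start.
Gfap: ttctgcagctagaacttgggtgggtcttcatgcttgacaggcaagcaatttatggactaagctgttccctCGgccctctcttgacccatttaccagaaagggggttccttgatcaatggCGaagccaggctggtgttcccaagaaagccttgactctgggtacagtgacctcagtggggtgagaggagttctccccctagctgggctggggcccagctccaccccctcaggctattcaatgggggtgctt
Vim: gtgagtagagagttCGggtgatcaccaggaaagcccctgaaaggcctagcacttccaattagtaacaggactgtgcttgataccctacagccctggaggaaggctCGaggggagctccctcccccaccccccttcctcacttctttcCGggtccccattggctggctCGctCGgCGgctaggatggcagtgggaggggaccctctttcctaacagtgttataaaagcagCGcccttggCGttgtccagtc
Pax2: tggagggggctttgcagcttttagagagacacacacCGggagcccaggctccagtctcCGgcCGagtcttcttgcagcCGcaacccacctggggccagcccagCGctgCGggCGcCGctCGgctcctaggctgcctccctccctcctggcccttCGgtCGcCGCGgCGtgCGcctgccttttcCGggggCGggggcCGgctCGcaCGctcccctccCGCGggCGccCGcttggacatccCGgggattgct

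The 3 runs differed in composition. Gfap had 2 CG dinucleotides, a number that 81.2% of 32851 RefSeq promoters reach, Vim had 8 (43.0%) and Pax2 had 25 (10.7%). A relation of these counts to the differences of Gfap and Pax2 between the WT libraries was not tested. Of the other members matched in the table, Apoe had 8, Glul had 15 and Sox2 had 27, against a median of 6. These counts describe the sequence only.

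Some members differed widely between the WT libraries. For 9 of 10 members the WT libraries were further apart on the log2 scale than the group means, beside 76.9% of all tested genes. Single libraries vary more than means of 2 libraries, so most genes do this without any difference between the genotypes. WT library a held 2.01 times the Pax2 level of WT library b, with an exact 95% interval for counting error of 1.46 to 2.80. The ratio was 1.97 (1.78 to 2.17) for Gfap and 1.66 (1.57 to 1.76) for Clu. These 3 of 10 members reached 1.5 times in that direction, beside 6.89% of all tested genes. Apoe at 1.33, Vim at 1.26 and Sox2 at 1.20 times were higher in the same library, and Glul and Dkk3 were at 1.04 and 1.03. Sox9 and Aqp4 were lower there, at 0.667 (0.601 to 0.740) and 0.707 (0.575 to 0.871). None of the 10 reached 1.5 times in this opposite direction, where 3.78% of all tested genes did, though Sox9 was just short of it. Both mutant libraries lay between the WT libraries for 6 of 10 members, beside 38.2% of all tested genes. Between the mutant libraries 0 of 10 members were 1.5 times apart, beside 3.31%.

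**Figure D3:**
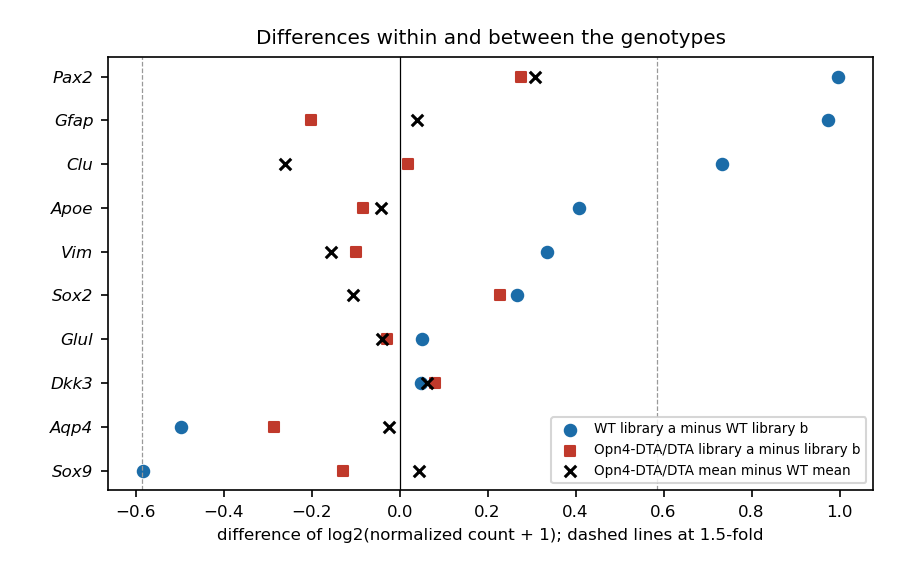
For each marker the horizontal axis gives the difference of log2(normalized count + 1) between the WT libraries (circles), between the Opn4-DTA/DTA libraries (squares) and between the group means (crosses), with dashed lines at 1.5-fold. The circles of Pax2, Gfap and Clu lie beyond the right line, that of Sox9 is at the left line, and all crosses lie inside.

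Other Muller genes did not share the direction of Gfap, Pax2 and Clu within WT. Of 22 further Muller genes 5 were higher in WT library a, beside 50.3% of all tested genes, with a median ratio of WT library a to b of 0.953. Of 8 further astrocyte genes 6 were higher there, with a median ratio of 1.31. Lists of other cells differed in this. Progenitor genes were higher in WT library a in 4 of 10 cases (median ratio 0.913) and starburst amacrine genes in 3 of 6 (0.976). Lens genes were so in 4 of 7 cases (1.01) and oligodendrocyte genes in 5 of 8 (1.03). Markers of several further cells were mostly or all higher in WT library a. Ganglion cell genes were so in 12 of 12 cases (median ratio 1.62), pigment epithelium genes in 12 of 12 (2.11), microglia genes in 12 of 12 (1.40) and vessel genes in 10 of 12 (1.36).

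The summed levels of the ganglion cell, pigment epithelium, microglia and vessel lists were lowest in WT library b. Ganglion cell markers summed to 81558 and 52095 in WT and 68449.8 and 69254 in Opn4-DTA/DTA, with the mutant libraries between those of WT. For pigment epithelium the sums were 12722 and 5623 in WT and 7577 and 5976 in Opn4-DTA/DTA, and WT library a stood alone. Microglia markers summed to 6506 and 4836 in WT and 5702 and 6433 in Opn4-DTA/DTA, and vessel markers to 21135 and 19769.6 in WT and 21424 and 20687 in Opn4-DTA/DTA. No marker of these 4 lists was at 0 in all 4 libraries together. Examples are the neurofilament gene Nefl, at 21732 and 14129 normalized counts in WT and 18197 and 18349 in Opn4-DTA/DTA, and the microglial receptor gene Csf1r, at 881 and 575 normalized counts in WT and 766 and 804 in Opn4-DTA/DTA. The part of these cells in the values of Apoe, Clu, Vim, Gfap and Pax2 was not tested.

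**Figure D4:**
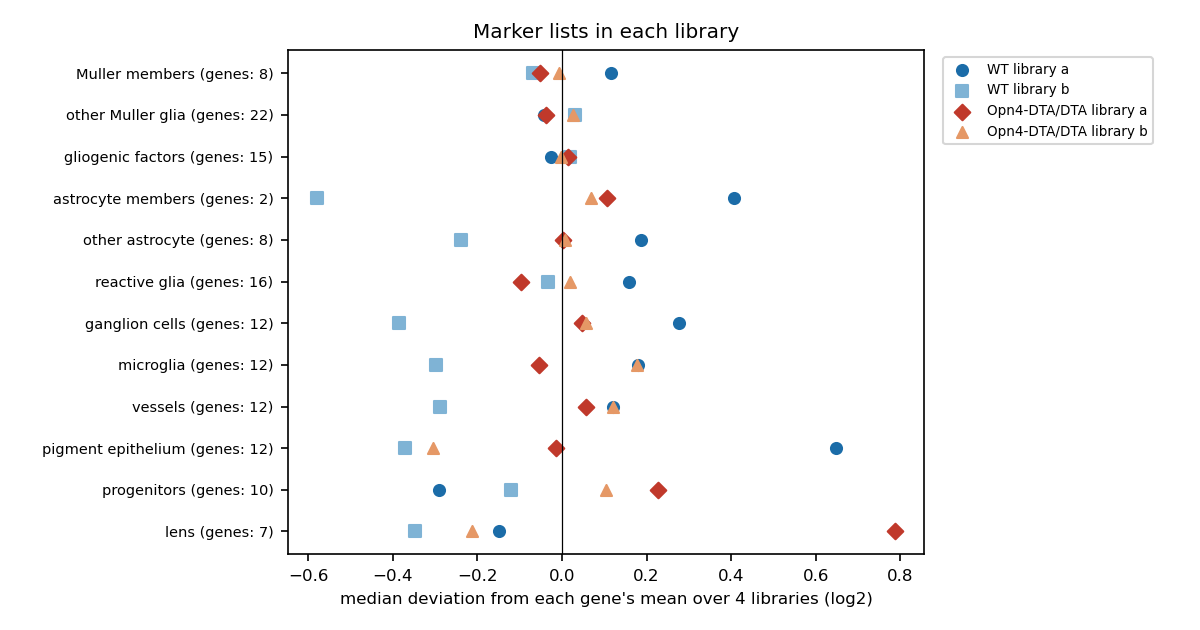
Each symbol is 1 library, and the horizontal axis gives the median over the genes of a list of the deviation of log2(normalized count + 1) from the gene's mean over the 4 libraries. For the astrocyte members, ganglion cells and pigment epithelium WT library a lies far to the right of WT library b, while the 22 other Muller genes and the 15 gliogenic factors stay near 0 in all 4 libraries.

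Muller genes beyond the members went both ways between the genotypes, without a call. Of 22 tested 0 passed, 11 were above 0 and 11 below, with a median log2 fold change of -0.0033. The groups did not overlap for 10 of the 22, 4 higher and 6 lower in Opn4-DTA/DTA, beside 23.5% of all tested genes (11.2% higher, 12.3% lower). Rlbp1, which binds retinaldehyde, had 13595 and 14488 normalized counts in WT and 12652 and 13312 in Opn4-DTA/DTA. The membrane proteolipid gene Gpm6b had 21349 and 22452 normalized counts in WT and 22523 and 22487 in Opn4-DTA/DTA, and Cav1, which encodes the membrane protein caveolin, had 1008 and 1013 normalized counts in WT and 767 and 949.5 in Opn4-DTA/DTA. The Rlbp1 and Cav1 groups lay apart, lower in the mutants, and the Gpm6b groups lay apart, higher in the mutants. Aldh1a1, an enzyme of retinoic acid synthesis, had the lowest p of the list, at 1218 and 1376 normalized counts in WT and 1619 and 1751 in Opn4-DTA/DTA, with groups apart and a log2 fold change of 0.38 ± 0.11 (SE, n = 2 per group).

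Of 15 factors of glial fate 0 passed, with 8 above 0 and a median of 0.011. The groups did not overlap for 4 of the 15, 3 higher and 1 lower, beside 23.5% of all tested genes. Id3, an inhibitor of basic helix-loop-helix factors, had 1437 and 1440.1 normalized counts in WT and 1701 and 1737 in Opn4-DTA/DTA, with groups apart. The Notch target gene Hes1 had 680.0 and 609 normalized counts in WT and 764 and 691 in Opn4-DTA/DTA.

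The other astrocyte genes were also without a call. Of 8 tested of 10 listed 0 passed, with a median of -0.0047. Pdgfra, the receptor for the growth factor with which ganglion cells draw astrocytes, had 4279.6 and 3359 normalized counts in WT and 4995 and 4395 in Opn4-DTA/DTA. Its groups lay apart, with a log2 fold change of 0.31 ± 0.13 (SE, n = 2 per group). Pdgfra was the 1 gene of these 8 whose groups did not overlap, beside 23.5% of all tested genes. The glycolytic gene Aldoc had 4738 and 4000.4 normalized counts in WT and 4092 and 4121 in Opn4-DTA/DTA, and the glutamate transporter gene Slc1a2, also made by retinal neurons, had 8032 and 10434 normalized counts in WT and 8671 and 8846 in Opn4-DTA/DTA. Of 12 genes that link astrocytes to vessel growth, Pdgfra included, 0 passed, with a median of 0.084. Vegfa, the factor that drives vessel sprouting, had 4350.4 and 5910.4 normalized counts in WT and 4329.9 and 5482 in Opn4-DTA/DTA, and its groups overlapped.

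Of 19 genes of reactive glia 16 were tested and 0 passed, with 6 above 0, 10 below and a median of -0.055. The groups did not overlap for 7 of the 16, 2 higher and 5 lower in Opn4-DTA/DTA. Over all tested genes this share was 23.5% (11.2% higher, 12.3% lower). Lcn2, a lipocalin induced in reactive astrocytes, had 75.4 and 61.2 normalized counts in WT and 50.2 and 45.02 in Opn4-DTA/DTA. Both mutant values were below both WT values, with a log2 fold change of -0.51 ± 0.25 (SE, n = 2 per group). Lcn2 rested on 40 to 92 counts per library. Stat3, a mediator of cytokine signals in glia, had 2566 and 2663 normalized counts in WT and 2512 and 2469 in Opn4-DTA/DTA. The matrix gene Tnc had 1657 and 1855 normalized counts in WT and 2322 and 1990.1 in Opn4-DTA/DTA and a log2 fold change of 0.29 ± 0.12 (SE, n = 2 per group), with the mutants higher.

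The pathways of the members gave no call either. Their lists include Glul, Aqp4, Apoe and Clu themselves. Of 10 genes of glutamate and glutamine handling 0 passed, 2 had a value above 0, and the median was -0.053. Without Glul the median was -0.064. Slc1a3, the main glutamate transporter of Muller glia, had 10992 and 13822 normalized counts in WT and 10688 and 11549 in Opn4-DTA/DTA, in overlapping groups. The glutamine transporter gene Slc38a3 had 5947 and 6019 normalized counts in WT and 5802 and 4954 in Opn4-DTA/DTA, lower in both mutant libraries. The groups did not overlap for 2 of these 10 genes, Glul included, 2 lower and 0 higher. Of all tested genes 12.3% were lower in this way. Of 10 genes of endfeet and of water and potassium transport 0 passed, with a median of 0.0048, or 0.0055 without Aqp4. The potassium channel gene Kcnj2 had 285 and 338 normalized counts in WT and 352 and 421 in Opn4-DTA/DTA. Of 19 genes of lipoprotein transport 0 passed, with a median of -0.036, or -0.034 without Apoe and Clu. The groups overlapped for all 19, whereas they did not overlap in 23.5% of all tested genes. Lrp8, a receptor for Apoe and reelin, had 10218 and 10766 normalized counts in WT and 11269 and 10428 in Opn4-DTA/DTA.

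Relatives of the members were likewise without a call, in lists that include the members themselves. Of 12 tested genes of Dickkopf and other Wnt regulators 0 passed (median 0.0053, or -0.013 without Dkk3). The secreted Wnt antagonist gene Sfrp2 had 176 and 176 normalized counts in WT and 230.4 and 219 in Opn4-DTA/DTA. Of 14 tested Sox genes 0 passed (median -0.032, also without Sox2 and Sox9). Sox4 had 8403 and 9449 normalized counts in WT and 9046 and 8780.1 in Opn4-DTA/DTA. Of 5 tested Pax and related eye factor genes 0 passed (median 0.12, or 0.098 without Pax2). Pax6, the eye field factor, had 11250.2 and 9986 normalized counts in WT and 11891 and 11194 in Opn4-DTA/DTA. Of 10 filament genes 0 passed (median -0.0061, also without Vim and Gfap). All 10 were higher in WT library a, with a median ratio of 1.45. This list holds the neurofilament genes of ganglion cells. Prph, the peripherin filament gene, had 40.6 and 24.5 normalized counts in WT and 16.4 and 17.4 in Opn4-DTA/DTA. It was lower in both mutant libraries, as were 12.3% of all tested genes, with a log2 fold change of -0.87 ± 0.37 (SE, n = 2 per group). Depth limits Prph, with 16 to 35 counts per library.

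Progenitor genes stood higher in the mutants, without a call. Of 10 tested 0 passed, 8 were above 0 and the median was 0.37. The groups lay apart for 9 of them, 8 higher and 1 lower, beside 23.5% of all tested genes (11.2% higher, 12.3% lower). An unadjusted p under 0.05 in limma was found for 5 of the 10, beside 1.66% of all tested genes. The sums over the list were 8903 and 10463 in WT and 11670.1 and 11049 in Opn4-DTA/DTA. The kinase gene Cdk1, which drives entry into mitosis, had 171 and 182 normalized counts in WT and 289 and 226 in Opn4-DTA/DTA. Vim, Sox2 and Sox9 are shared with progenitors, and their part in the values of these members was not tested.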

How the data were processed

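The members and gene lists were chosen with earlier results of these data known. The submitters' processing notes name FastQC, STAR, HTSeq, DESeq2 and the build mm10. Versions, the annotation and whether counting used strand are not given in the sources used here. Libraries were directional, per the labels' protocols. The deposited signal is, per the file headers and the values, each group's mean of 2 libraries' counts over their size factors. The authors deposited a log2 fold change and its error, a score (the test statistic) and p-values beside it. 1 line of the table was empty. Each mean was solved as whole multiples of 2 steps within a relative tolerance of 3e-13, which gave 1 pair of counts for all 17757 means above 0 in WT and all 18327 in Opn4-DTA/DTA. This step was checked on simulated data. Within WT the counts gave a chi-square per degree of freedom of 30.8, and within the mutants 21.9, so neither pair repeats a library. limma 3.58.1 (R 4.3.3, variance trend, no covariates) was fitted to log2(normalized count + 1) for genes with a mean of at least 10, with Benjamini-Hochberg adjustment over all of them and a threshold of 0.05. This scale understates the change of low genes. Intervals of library ratios are exact and cover counting error only. Exon lengths come from GENCODE vM21. Up to 4 genes of each list could be named, the 2 with the lowest p and the 2 with the highest mean. Alternatives were the pseudocount, the filter, the scaling, the variance model, thinning to 1 depth and leaving out each library.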

Additional observations from a re-analysis of the deposited data

How the results depend on the processing

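Under other pseudocounts, filters, scalings and variance models and with thinned counts, 0 members passed, and each kept its direction except Aqp4, at a log2 fold change of 0.0038 with scaling by library totals. That scaling moved the median of all genes to 0.028. Without a variance trend 0 genes passed in limma in place of 3, and 483 had an unadjusted p under 0.05. With 1 library left out, 10 to 306 genes and 0 to 3 members passed, and the median of the members was -0.22 to 0.057. Single members then ranged over -0.25 to 0.16 for Apoe, -0.63 to 0.11 for Clu, -0.25 to 0.34 for Sox9, -0.24 to 0.028 for Sox2, -0.27 to 0.22 for Aqp4, -0.32 to 0.011 for Vim, -0.45 to 0.53 for Gfap and -0.19 to 0.81 for Pax2. Glul stayed below 0 and Dkk3 above 0 in every fit run. The cause was not tested. No paired analysis was possible because the labels give no replicate numbers shared between the groups and the recovered libraries carry no sample names. Depth limits Pax2, with 54 to 293 counts per library, and Aqp4, with 181 to 407.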

Other observations

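Oligodendrocytes are normally absent from the mouse retina and abundant in the optic nerve. Of 10 listed genes 8 were tested, 0 passed in limma, and the median log2 fold change was -0.0097. The myelin basic protein gene Mbp, whose locus also gives other transcripts, had 1879 and 1999 normalized counts in WT and 2031 and 1634 in Opn4-DTA/DTA, and the myelin gene Mag had 44.1 and 24.5 normalized counts in WT and 39.3 and 53.2 in Opn4-DTA/DTA. Mobp was at 0 in all 4 libraries.

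Starburst amacrine cells also make Sox2. Of 6 of their genes 0 passed in limma, with a median of -0.023. Slc5a7, the choline transporter gene, had 392.2 and 350.5 normalized counts in WT and 489.7 and 479.9 in Opn4-DTA/DTA, whereas Chat, which makes acetylcholine, had 178 and 220.4 normalized counts in WT and 133 and 175 in Opn4-DTA/DTA. The groups lay apart for both genes, in opposite directions. Over the list they lay apart for 4 of the 6, 1 higher and 3 lower in Opn4-DTA/DTA. Over all tested genes the share was 23.5% (11.2% higher, 12.3% lower).

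Lens genes were uneven in a different library than the glial markers. The sums over the 7 tested and 5 untested genes were 311 and 317 in WT and 649.7 and 315 in Opn4-DTA/DTA.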
